A study of Mus musculus with 11 samples.

Results

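Genes of the spliceosome and of the main families of splicing factors were followed in mouse LSKs, the Lin-Sca1+Kit+ bone marrow cells that hold hematopoietic stem cells and multipotent progenitors. The members were every gene of the count table whose symbol begins with Srsf, Sf3a, Sf3b, Snrp, Prpf, or Hnrnp, together with U2af1, U2af2, Zrsr2, Luc7l2, and Ddx41. This gave 69 of the 12647 genes in the table, and all 69 passed the filter on low counts, which left 12625 genes for testing. They were grouped as 7 Sm ring proteins, 4 proteins particular to the U1 and U2 snRNPs, 9 SF3A and SF3B subunits, 3 factors of the 3′ splice site, 13 Prpf proteins, 11 SR proteins, 20 hnRNPs, and Luc7l2 with Ddx41.

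RNA-seq was done on 3 libraries of each of 3 genotypes, 9 in all. The p53+/+ mice carry the HUPKI allele, a humanized p53 knock-in that codes for a mostly human p53 flanked by mouse ends. The p53R248W/+ mice are heterozygous for the R248W missense mutation placed in that same allele, and both lines were backcrossed to C57BL/6. The p53-/- mice lack p53 in every tissue, so no comparison isolates the marrow cells from the rest of the animal, and the controls of both comparisons are humanized rather than plain wild-type mice. All mice are described as young and free of tumors, and no mouse was treated. Trp53 itself, the targeted gene, read 125, 207, and 376 CPM in p53+/+, 219, 240.5, and 235 CPM in p53R248W/+, and 129, 127, and 112 CPM in p53-/- libraries (log2 fold change -0.94 ± 0.31 SE, adjusted p = 0.095, edgeR, for p53-/- against p53+/+). Reads over the gene were therefore still counted in p53-/- libraries, and a total per gene is no check of the deletion. The HUPKI allele is mostly human in sequence and the build named is the mouse build mm10, so its reads may be counted less fully. Whether Trp53 values can be compared between genotypes was not tested. Cdkn1a, which codes for the p53-induced cell cycle inhibitor p21, read 67.0, 44.0, and 43.6 CPM in p53+/+, 52.1, 37.7, and 35.7 CPM in p53R248W/+, and 17.8, 8.27, and 10.9 CPM in p53-/- libraries (log2 fold change -2.07 ± 0.30 SE, adjusted p = 0.0091, edgeR, for p53-/- against p53+/+).

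Introns are removed from pre-mRNA by the spliceosome, which is put together on each intron from small nuclear ribonucleoprotein particles (snRNPs). The U1 snRNP reads the 5′ splice site, U2AF and the U2 snRNP with its SF3A and SF3B parts read the branch point and 3′ splice site, and the U4, U5, and U6 snRNPs join as a tri-snRNP that is remodelled into the catalytic form. SR proteins bind mainly in exons and favor the use of nearby sites, while hnRNPs coat the pre-mRNA and often act against them. In blood, SF3B1, SRSF2, U2AF1, and ZRSR2 are known for recurrent mutations in clonal hematopoiesis and myelodysplastic syndromes, and PRPF8, LUC7L2, and DDX41 are mutated or lost in myeloid neoplasms.

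Promoters are shown first, because members that differed together between genotypes can be compared by their sequence. They run from 250 bases before to 50 bases after a transcription start and come from RefSeq on GRCm38.p6, where 60 of the 69 members matched, with 78 promoters. For Prpf4b, Hnrnpdl, and Srsf10 the window shown lies within the bounds of the gene. The start used for them is therefore downstream of the outermost start. The promoters of 4 members that were lower in p53-/- LSKs and of Srsf10, the SR gene with the largest log2 fold change above 0 among members with a mean log2 CPM of at least 1, are given 5′ to 3′ with matches to the motifs searched in capitals.
Prpf31 (chr7:3629735-3630034, plus strand): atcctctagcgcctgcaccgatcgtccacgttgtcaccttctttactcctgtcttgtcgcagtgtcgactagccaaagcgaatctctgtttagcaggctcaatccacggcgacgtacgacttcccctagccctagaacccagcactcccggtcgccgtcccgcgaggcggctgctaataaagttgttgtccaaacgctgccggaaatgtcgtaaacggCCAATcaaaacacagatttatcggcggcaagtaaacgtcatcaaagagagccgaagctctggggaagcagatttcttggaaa
Prpf4b (chr13:34875279-34875578, plus strand): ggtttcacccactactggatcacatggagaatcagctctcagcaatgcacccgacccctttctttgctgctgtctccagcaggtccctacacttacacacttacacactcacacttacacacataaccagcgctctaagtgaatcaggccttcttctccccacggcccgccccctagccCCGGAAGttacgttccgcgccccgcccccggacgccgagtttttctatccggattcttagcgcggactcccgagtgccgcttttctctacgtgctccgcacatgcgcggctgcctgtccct
Srsf5 (chr12:80945249-80945548, plus strand): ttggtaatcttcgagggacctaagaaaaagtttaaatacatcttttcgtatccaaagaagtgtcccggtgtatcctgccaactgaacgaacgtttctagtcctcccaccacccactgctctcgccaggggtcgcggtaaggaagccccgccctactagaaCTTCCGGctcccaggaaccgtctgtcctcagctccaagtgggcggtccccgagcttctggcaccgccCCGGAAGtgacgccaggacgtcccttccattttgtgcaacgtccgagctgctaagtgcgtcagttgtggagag
Hnrnpdl (chr5:100039173-100039472, minus strand): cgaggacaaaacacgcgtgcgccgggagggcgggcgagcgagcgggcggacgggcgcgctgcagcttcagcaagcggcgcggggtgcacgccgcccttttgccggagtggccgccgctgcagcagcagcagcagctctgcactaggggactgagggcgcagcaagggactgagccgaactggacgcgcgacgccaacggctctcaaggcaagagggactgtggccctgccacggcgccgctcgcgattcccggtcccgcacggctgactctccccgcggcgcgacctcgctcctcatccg
Srsf10 (chr4:135855821-135856120, plus strand): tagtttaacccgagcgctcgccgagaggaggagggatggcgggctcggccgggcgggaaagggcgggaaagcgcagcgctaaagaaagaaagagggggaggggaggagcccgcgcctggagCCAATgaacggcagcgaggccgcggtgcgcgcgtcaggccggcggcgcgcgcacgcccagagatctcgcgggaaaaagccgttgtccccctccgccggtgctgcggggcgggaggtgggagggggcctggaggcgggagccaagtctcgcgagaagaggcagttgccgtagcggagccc

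The motifs were searched on both strands, and none of the words below lies within another. The ETS word CCGGAAG was in 25 of the 78 member promoters (32.1%) and in 8.86% of the 32851 promoters in the RefSeq table. In the promoters shown it lay 71 to 65 bases before the start used for Prpf4b and at 2 places before Srsf5, from 90 to 84 and from 23 to 17 bases before the start. CCAAT was in 50% of member promoters against 37.4% of all. In those shown it lay 32 to 28 bases before the start of Prpf31 and 129 to 125 bases before the start used for Srsf10. The E-box CACGTG was in 14.1% against 7.15%, the NRF1 core GCATGCGC in 5.13% against 2.71%, AAGATGGC (YY1) in 3.85% against 2.75%, and TTTGGCGC or TTTCGCGC (E2F) in 2.56% against 0.813%. The p53 consensus of a pair of decamers with at most 13 bases between them was in 0 of the 78, and in 0.0731% of all. Member promoters were richer in G and C, with a median of 60.3% against 52.7% over all promoters, and no test was made of these shares. The promoter shown for Hnrnpdl, with a GC content of 72.7%, held none of the words, and the outermost start of this gene lies outside that window.

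The 9 libraries held 18021375 to 29750702 counts on genes, with a median of 20116602, and values are given as CPM (counts scaled to library size with TMM factors). The p53R248W/+ replicate 1 library was the deepest and stood apart by gene length: its median difference from the mean of all libraries was 0.26 on the log2 scale over the 4212 shortest genes tested and −0.28 over the 4212 longest. Reads from 4 Y-linked genes were at 69.8 to 184 CPM in p53+/+ replicate 2 and p53R248W/+ replicates 2 and 3, and below 1 CPM in the other 6 libraries, so all p53-/- libraries are of the second kind. Of the sorted cell's markers, Kit read 629.7, 861, and 507 CPM and Ly6a (Sca1) 262, 219, and 149 CPM in p53+/+ libraries, against 807, 493, and 805 and 276, 444, and 271 CPM in p53-/- libraries.

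The members together took 1.68%, 1.72%, and 2.05% of normalized counts in p53+/+ libraries, 1.86%, 1.81%, and 1.73% in p53R248W/+ libraries, and 1.65%, 1.46%, and 1.60% in p53-/- libraries. Every p53-/- library was therefore below every library of the other genotypes. In bulk RNA, fewer cells of a type and less RNA per cell cannot be told apart.

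Per length, as CPM per kilobase of the deposited gene length, the levels ranged widely. The highest mean levels over the 9 libraries were those of Snrpb (573), Hnrnpk (561), Snrpe (548), Hnrnpa2b1 (387), and Snrpg (379.5). Snrpb, Snrpe, and Snrpg are Sm proteins, the small subunits shared by the U1, U2, U4, and U5 snRNPs, and the others are the poly(C)-binding Hnrnpk and the mRNA-binding Hnrnpa2b1. The lowest were Srsf12 (0.225), Hnrnpa3 (2.88), Hnrnpul2 (3.57), Hnrnpa1 (3.72), and Prpf40b (4.58). The levels of Hnrnpa1 and Hnrnpa3 are uncertain: 58.5% and 29.3% of their transcripts lie in stretches with at least 95% identity to 12 and 31 other annotated genes, and reads from such stretches can be lost or moved in counting. Such stretches also make up 33.6% of the transcript of Snrpe and 29.9% of that of Snrpg. Srsf12 had 1 to 39 counts per library.

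In p53-/- LSKs the members lay mostly below their p53+/+ levels, and 5 of them were lower at an adjusted p below 0.05 (edgeR quasi-likelihood test, adjusted over all genes), among them the tri-snRNP protein Prpf31, the kinase Prpf4b, the SR protein Srsf5, and the AU-rich element binder Hnrnpdl. None was higher. This is 7.25% of the members, where 2.25% of all genes tested were called lower and 1.25% higher. At an unadjusted p below 0.05, 22 members were lower and 2 were higher, against 12.5% and 10.9% of all genes. In 22 members all 3 p53-/- libraries were below all 3 p53+/+ libraries and in 5 they were all above, against 16.0% and 15.4% of all genes. Fold changes were below 0 in 53 of the 69 members, and their median on the log2 scale was −0.31, against −0.00 over all genes tested.

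**Figure D1:**
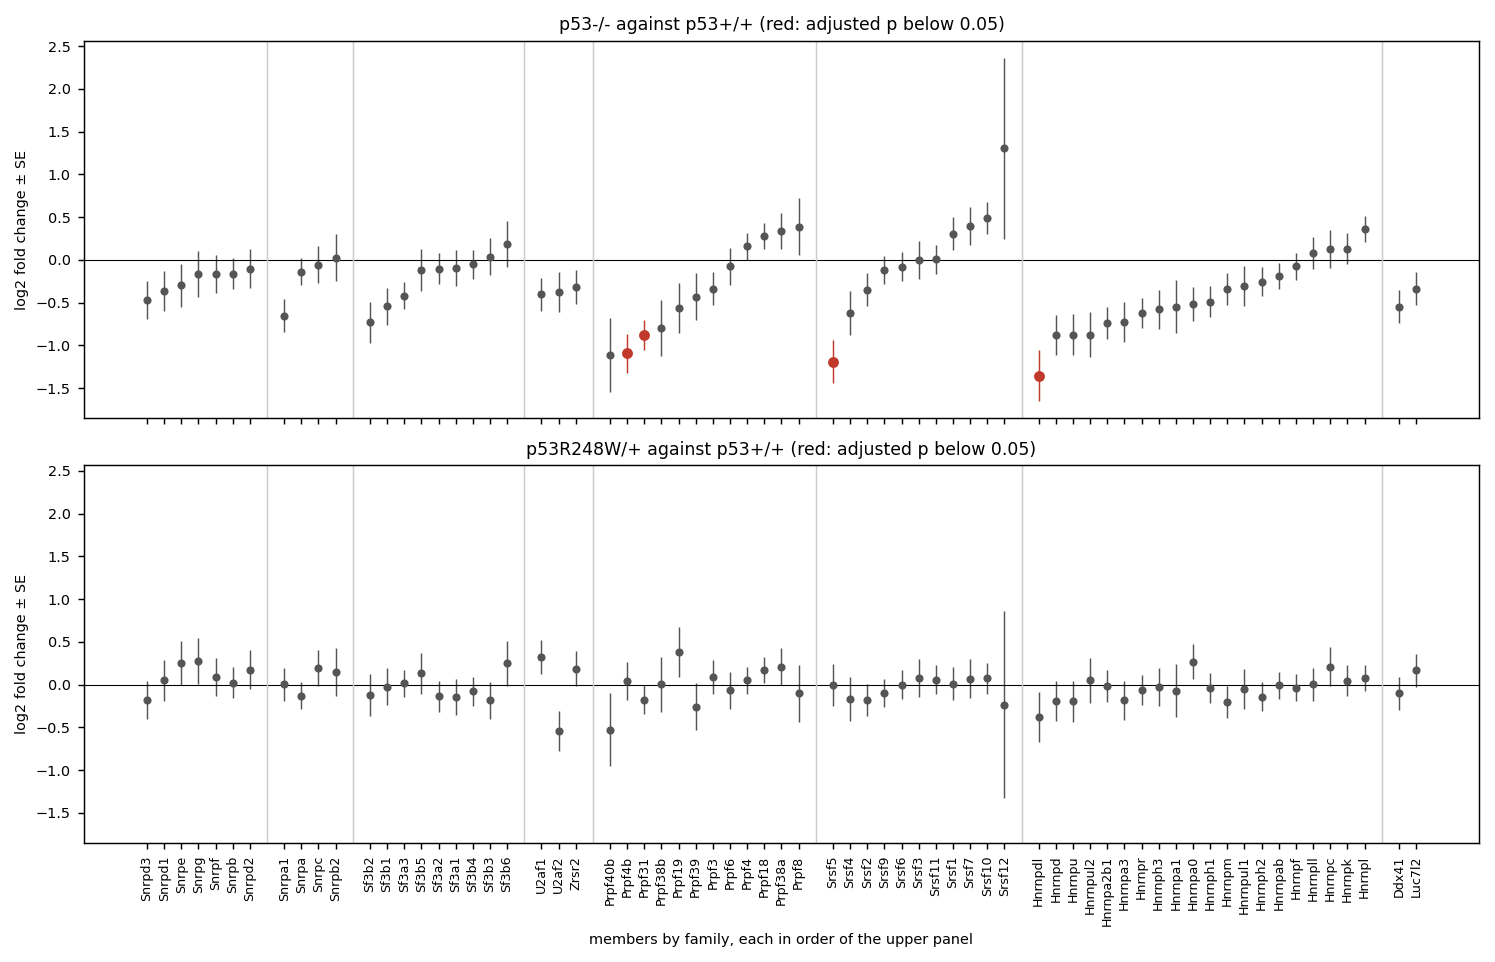
Log2 fold change ± SE (edgeR) of 68 members, by family from left to right (Sm ring, U1 and U2 snRNP proteins, SF3A and SF3B, 3′ splice site factors, Prpf, SR, hnRNP, and Luc7l2 with Ddx41), for p53-/- (top) and p53R248W/+ (bottom) against p53+/+; red marks an adjusted p below 0.05. In the top panel 52 members lie below 0 and 4 are red; in the bottom panel 34 lie below 0 and none is red.

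The count of 5 rested on single libraries: it was 0 without p53+/+ replicate 2, p53+/+ replicate 3, p53-/- replicate 1, or p53-/- replicate 2, fits in which 37 to 53 of all genes were called, and 2 (Srsf5 and Hnrnpdl) without p53-/- replicate 3, where 103 were. It was 14 without p53R248W/+ replicate 1, where 1485 of all genes (11.7%) were called, against 442 with all libraries. Over the fits that left out 1 library, log2 fold changes ranged from −1.01 to −0.72 for Prpf31, −1.29 to −0.98 for Prpf4b, −1.55 to −1.04 for Srsf5, and −1.76 to −1.10 for Hnrnpdl. DESeq2 called 13 members, all lower, and 12.2% of all genes. Without p53+/+ replicate 3, the p53+/+ library with the largest share of member counts, the median over the members was −0.14, and 46 of 69 fold changes were below 0.

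The Prpf family, named after yeast precursor RNA processing mutants, held called genes and genes on the other side of 0. Prpf31, which bridges the U4 snRNA and the U5 snRNP in the tri-snRNP (GRCm38 chr7:3629985-3642485), read 157, 187, and 232 CPM in p53+/+, 171, 177, and 162 CPM in p53R248W/+, and 95.4, 104, and 114 CPM in p53-/- libraries. The p53-/- group did not overlap either other group, at 0.543 times the p53+/+ level (log2 fold change -0.88 ± 0.17 SE, adjusted p = 0.027). Of the exon bases of Prpf31, 18.1% are shared with Gm15927 on the opposite strand, and the kit does not mark strand.

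Prpf4b, a protein kinase that phosphorylates spliceosome components on the way to the active form (chr13:34874820-34906064), read 54.7, 88.4, and 86.9 CPM in p53+/+, 60.2, 85.5, and 90.8 CPM in p53R248W/+, and 33.5, 33.9, and 40.3 CPM in p53-/- libraries. It stood at 0.468 times its p53+/+ level (log2 fold change -1.09 ± 0.23 SE, adjusted p = 0.029), with no overlap between p53-/- and the other libraries.

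Prpf genes on both sides of 0 did not pass the threshold in the edgeR fit of all libraries. Prpf40b, a low-expressed member, had the lowest log2 fold change of the family at -1.11 ± 0.44 SE (adjusted p = 0.16, edgeR), with 16.02, 17.8, and 26.5 CPM in p53+/+ and 10.8, 9.40, and 7.71 CPM in p53-/- libraries. It was called lower with only the 6 libraries of these genotypes and without p53R248W/+ replicate 1, and in no other fit. Prpf38b, Prpf39, and Prpf3, a protein of the U4/U6 snRNP, had fold changes of -0.80, -0.43, and -0.34 on the log2 scale. Prpf18, a factor of the second catalytic step, and Prpf38a, which acts in activation, lay the other way at 0.28 and 0.34, with all p53-/- libraries above all p53+/+ libraries. The family median was −0.43, with 9 of 13 below 0.

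For Prpf8 and Prpf19 the p53-/- group was split by 1 library. Prpf8, the scaffold of the catalytic center, read 125, 159, and 152 CPM in p53+/+, 101, 150.3, and 155 CPM in p53R248W/+, and 116, 134, and 319.5 CPM in p53-/- libraries, and p53-/- replicate 3 alone was high. Its log2 fold change for p53-/- against p53+/+ was 0.39 ± 0.33 SE and turned to −0.21 without that library. Prpf19, a ubiquitin ligase that stabilizes the active spliceosome, read 169.5, 218, and 233 CPM in p53+/+, 217, 305, and 287 CPM in p53R248W/+, and 217, 88.5, and 116 CPM in p53-/- libraries, and p53-/- replicate 1 lay among the p53+/+ values while the other p53-/- libraries lay below all others.

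Among the SR proteins, Srsf5 (chr12:80945495-80950507) fell in p53-/- LSKs and no other member passed the threshold. Srsf5 read 326, 259, and 313 CPM in p53+/+, 236, 317, and 343 CPM in p53R248W/+, and 103, 102, and 188 CPM in p53-/- libraries, which is 2.28-fold lower in p53-/- than in p53+/+ (log2 fold change -1.19 ± 0.25 SE, adjusted p = 0.03). The p53-/- replicate 3 value was the highest of its group and still below every other library. Of the Srsf5 transcript, 51.7% lies in stretches with at least 95% identity to 1 other annotated gene, Gm12966.

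The SR genes lay on both sides of 0, with 6 of the 11 below it, Srsf5 included, and a median log2 fold change of −0.01. Srsf10, an SR protein that becomes a repressor when dephosphorylated, read 161, 124, and 179.8 CPM in p53+/+, 198, 148, and 143 CPM in p53R248W/+, and 228, 214, and 213 CPM in p53-/- libraries. All 3 p53-/- libraries were above the other 6, with a log2 fold change of 0.50 ± 0.19 SE and an adjusted p of 0.14 (edgeR). Srsf7, which also couples splicing to mRNA export, was at 0.39 ± 0.22 with no overlap with p53+/+ (adjusted p = 0.32), and Srsf1, the founding member of the family, was at 0.31 ± 0.19 (adjusted p = 0.36). Srsf4 was at -0.63 ± 0.26 with all p53-/- libraries below p53+/+ (adjusted p = 0.17), and 43.0% of its exon bases are shared with a gene on the opposite strand. Srsf3, Srsf6, Srsf9, and Srsf11 had log2 fold changes between -0.12 and 0.01.

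**Figure D2:**
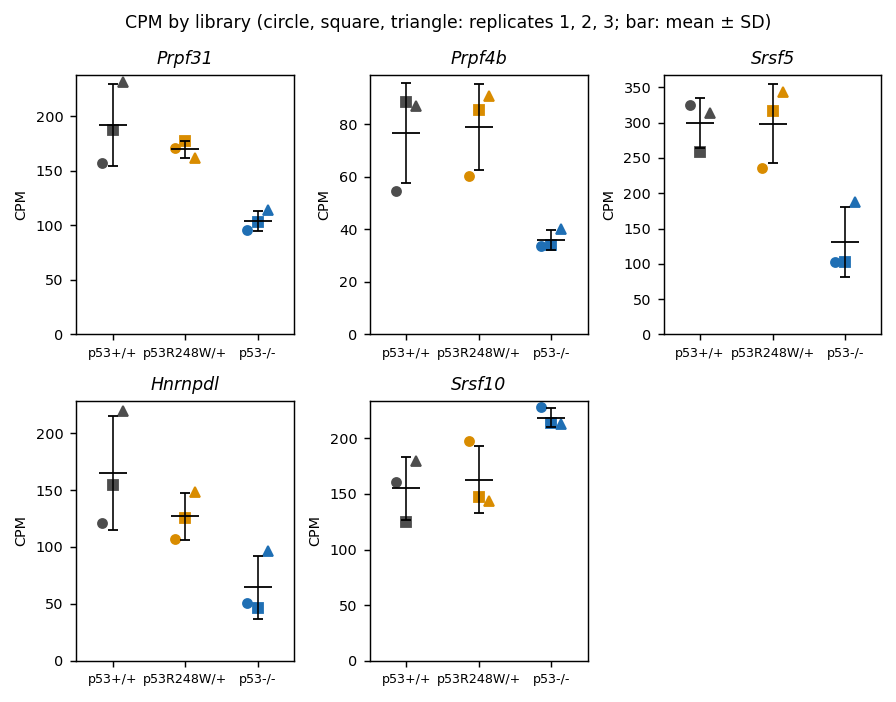
CPM by library (linear axis from 0) of 4 members with an adjusted p below 0.05 in p53-/- against p53+/+ LSKs, and of Srsf10; circles, squares, and triangles are replicates 1, 2, and 3, and bars are the mean ± SD of 3 libraries. In these 4 genes each p53-/- library lies below the other 6 libraries, and in Srsf10 each lies above them.

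The hnRNP family had the lowest median of the larger families, −0.50 on the log2 scale, with 16 of 20 members below 0. At an unadjusted p below 0.05 (edgeR), 10 of the 20 (50%) were lower and 1 (5%) was higher, against 12.5% and 10.9% of all genes. After adjustment 1 of the 20 (5%) was called, lower, against 2.25% of all genes. That one was Hnrnpdl (chr5:100033577-100039936), which binds AU-rich RNA and regulates its own splicing. It read 121, 155, and 219 CPM in p53+/+, 107, 125, and 148 CPM in p53R248W/+, and 50.4, 46.7, and 96.1 CPM in p53-/- libraries, and each p53-/- value was below all others, at 0.391 times the p53+/+ mean level in the fit (log2 fold change -1.36 ± 0.30 SE, adjusted p = 0.034).

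Its relative Hnrnpd, which binds AU-rich elements of unstable mRNAs, read 291, 367, and 450.4 CPM in p53+/+, 250.3, 362, and 355 CPM in p53R248W/+, and 206, 147, and 249.3 CPM in p53-/- libraries (log2 fold change -0.88 ± 0.24 SE, adjusted p = 0.06, p53-/- against p53+/+). Hnrnpa2b1 read 869, 1085, and 1279 CPM in p53+/+, 936, 1155, and 1100.2 CPM in p53R248W/+, and 752, 546, and 643 CPM in p53-/- libraries (log2 fold change -0.74 ± 0.19 SE, adjusted p = 0.052). Hnrnpu, a nuclear matrix protein that binds chromatin-associated RNA, read 909.9, 1297, and 1364 CPM in p53+/+, 697, 1296, and 1125 CPM in p53R248W/+, and 656, 544, and 748 CPM in p53-/- libraries (log2 fold change -0.87 ± 0.24 SE, adjusted p = 0.063). In these 3 abundant genes the p53-/- libraries were all below the p53+/+ libraries, but the p53R248W/+ replicate 1 value of Hnrnpu reached into the p53-/- range. The adjusted p missed 0.05 in each in the edgeR fit of all libraries. DESeq2 called all 3 lower, as did edgeR with only the 6 libraries of these genotypes and without p53R248W/+ replicate 1. Of all genes, 12.2%, 7.13%, and 11.7% were called in these fits.

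Hnrnpr, Hnrnpul2, Hnrnpa3, Hnrnph3, Hnrnph1, and Hnrnpa0 also had an unadjusted p below 0.05, with log2 fold changes from -0.87 (Hnrnpul2) to -0.49 (Hnrnph1). Hnrnpl, which binds CA-rich RNA, was the member on the other side: 383, 345, and 416 CPM in p53+/+, 449.8, 377, and 376 CPM in p53R248W/+, and 503, 471, and 493 CPM in p53-/- libraries (log2 fold change 0.36 ± 0.15 SE, adjusted p = 0.18). Its p53-/- libraries were above the other 6. Hnrnpk, the family member with the largest CPM, overlapped between all genotypes, with means of 1633 ± 155 CPM in p53+/+, 1684 ± 360.0 CPM in p53R248W/+, and 1787 ± 213 CPM in p53-/- libraries (SD, n = 3). Hnrnpc, Hnrnpf, and Hnrnpll had log2 fold changes of 0.13, -0.07, and 0.08.

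**Figure D3:**
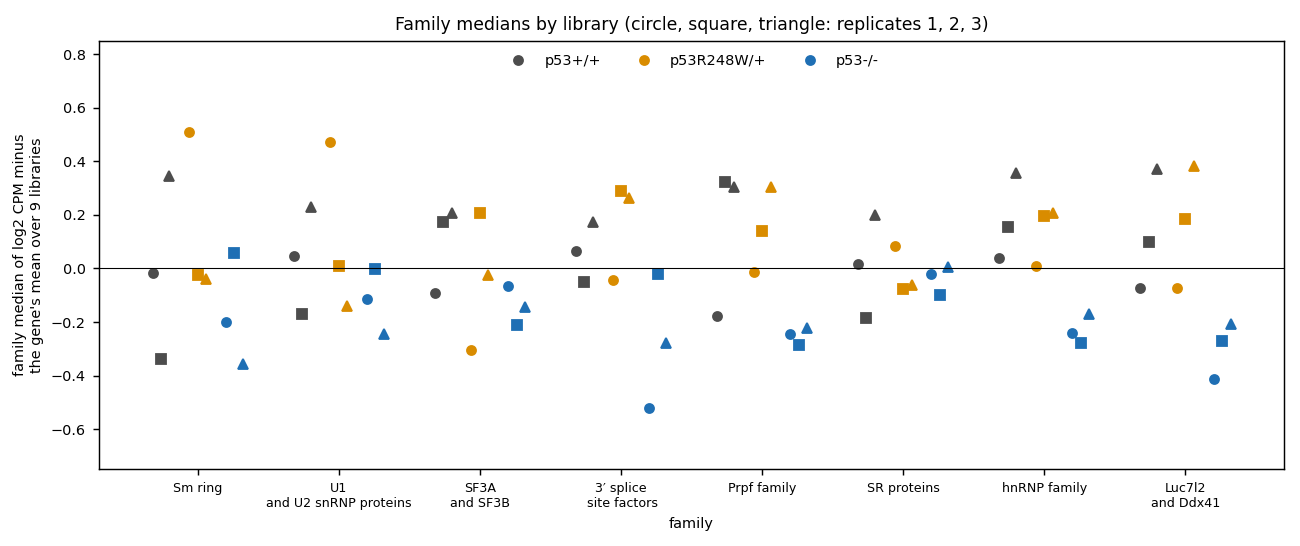
For each family and library, the median over the members of log2 CPM minus the gene's mean over the 9 libraries (gray p53+/+, orange p53R248W/+, blue p53-/-; symbols are replicates). The 3 p53-/- libraries lie below all others for the hnRNP family, the Prpf family, and Luc7l2 with Ddx41, and among the others for the SR proteins. For the Sm ring, p53-/- replicate 3 is the lowest of the 9 libraries (−0.355), just below p53+/+ replicate 2 (−0.337). The other p53-/- libraries lie among the rest there.

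The Sm ring and the U1 and U2 proteins held no member called with edgeR in p53-/- against p53+/+. All 7 Sm genes had fold changes below 0, from -0.47 for Snrpd3 to -0.10 for Snrpd2 on the log2 scale, and in none did the p53-/- and p53+/+ libraries separate. Snrpd3 read 191, 181, and 312 CPM in p53+/+, 226, 188, and 188 CPM in p53R248W/+, and 137, 192, and 165 CPM in p53-/- libraries (adjusted p = 0.23, edgeR, p53-/- against p53+/+). The p53+/+ replicate 3 value was the highest of the 9. Among the proteins particular to a snRNP, the U2 protein Snrpa1 stood apart from Snrpa (U1), Snrpc (U1), and Snrpb2 (U2): it read 114, 113, and 178 CPM in p53+/+, 150.4, 135, and 121 CPM in p53R248W/+, and 83.1, 89.7, and 85.5 CPM in p53-/- libraries (log2 fold change -0.65 ± 0.20 SE, adjusted p = 0.079), with p53-/- below all others, and was called lower with DESeq2 (adjusted p = 0.029), with the Y-linked level in the fit (0.041), and without p53R248W/+ replicate 1, while the other 3 had log2 fold changes between -0.14 and 0.03.

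In the branch point complex of U2, none of 9 SF3 genes was called with edgeR in p53-/- against p53+/+. At an unadjusted p below 0.05, 3 (33.3%) were lower and 0 higher, against 12.5% and 10.9% of all genes. Sf3b2 read 309, 413, and 418 CPM in p53+/+, 217, 428, and 403 CPM in p53R248W/+, and 195.0, 247.8, and 244 CPM in p53-/- libraries (log2 fold change -0.73 ± 0.24 SE, adjusted p = 0.1). DESeq2 called it lower (adjusted p = 0.039), as did edgeR with the replicate block (0.041), with only the 6 libraries of these genotypes (0.034), and without p53R248W/+ replicate 1. Its lowest value outside p53-/- was that of p53R248W/+ replicate 1. Sf3a3, an SF3A subunit, had a log2 fold change of -0.42 ± 0.16 SE and Sf3b1 of -0.54 ± 0.22 SE, both with p53-/- libraries below p53+/+ libraries. Groups separated in that direction in 33.3% of the SF3 genes, against 16.0% of all genes. Sf3b3, Sf3b4, Sf3b5, Sf3b6, Sf3a1, and Sf3a2 lay between -0.12 and 0.18.

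None of the 7 genes mutated or lost in myeloid neoplasms passed the threshold with edgeR in any comparison, and DESeq2 called 1 of them, U2af1, higher in p53R248W/+ than in p53-/- libraries. Sf3b1, the branch point clamp, read 357, 509.7, and 489.6 CPM in p53+/+, 353, 447, and 531 CPM in p53R248W/+, and 339.7, 238, and 353 CPM in p53-/- libraries (adjusted p = 0.16 for p53-/- against p53+/+, edgeR). Ddx41, a DEAD-box helicase, read 78.0, 102, and 108 CPM in p53+/+, 70.5, 97.3, and 101 CPM in p53R248W/+, and 56.7, 69.5, and 70.6 CPM in p53-/- libraries (log2 fold change -0.55 ± 0.19 SE, adjusted p = 0.12), and Luc7l2, a U1-associated protein, read 33.5, 32.5, and 45.1 CPM in p53+/+, 37.1, 38.4, and 49.0 CPM in p53R248W/+, and 28.7, 28.5, and 30.6 CPM in p53-/- libraries (log2 fold change -0.34 ± 0.19 SE, adjusted p = 0.31). For these 3 of the 7 genes (42.9%) each p53-/- library was below each p53+/+ library, against 16.0% of all genes. In 0 of the 7 was each above, against 15.4% of all genes. Of the exon bases of Ddx41, 17.4% are shared with an antisense gene.

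Srsf2 read 666, 638, and 948 CPM in p53+/+, 686, 689, and 608 CPM in p53R248W/+, and 646, 484, and 639 CPM in p53-/- libraries (log2 fold change -0.35 ± 0.19 SE, adjusted p = 0.3), and Zrsr2, which reads the 3′ splice site of minor introns, read 30.03, 27.05, and 32.1 CPM in p53+/+, 27.8, 35.1, and 38.6 CPM in p53R248W/+, and 19.8, 28.2, and 23.5 CPM in p53-/- libraries (log2 fold change -0.32 ± 0.20 SE, adjusted p = 0.37); in both the genotypes overlapped. U2af1, which reads the AG of the 3′ splice site, read 119, 116, and 136 CPM in p53+/+, 162, 157, and 144 CPM in p53R248W/+, and 118, 93.6, and 68.6 CPM in p53-/- libraries. Its p53-/- and p53+/+ values overlapped (log2 fold change -0.40 ± 0.20 SE, adjusted p = 0.24) and its p53R248W/+ values were above both. Of the U2af1 transcript, 74.7% lies in stretches with at least 95% identity to 3 other annotated genes.

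**Figure D4:**
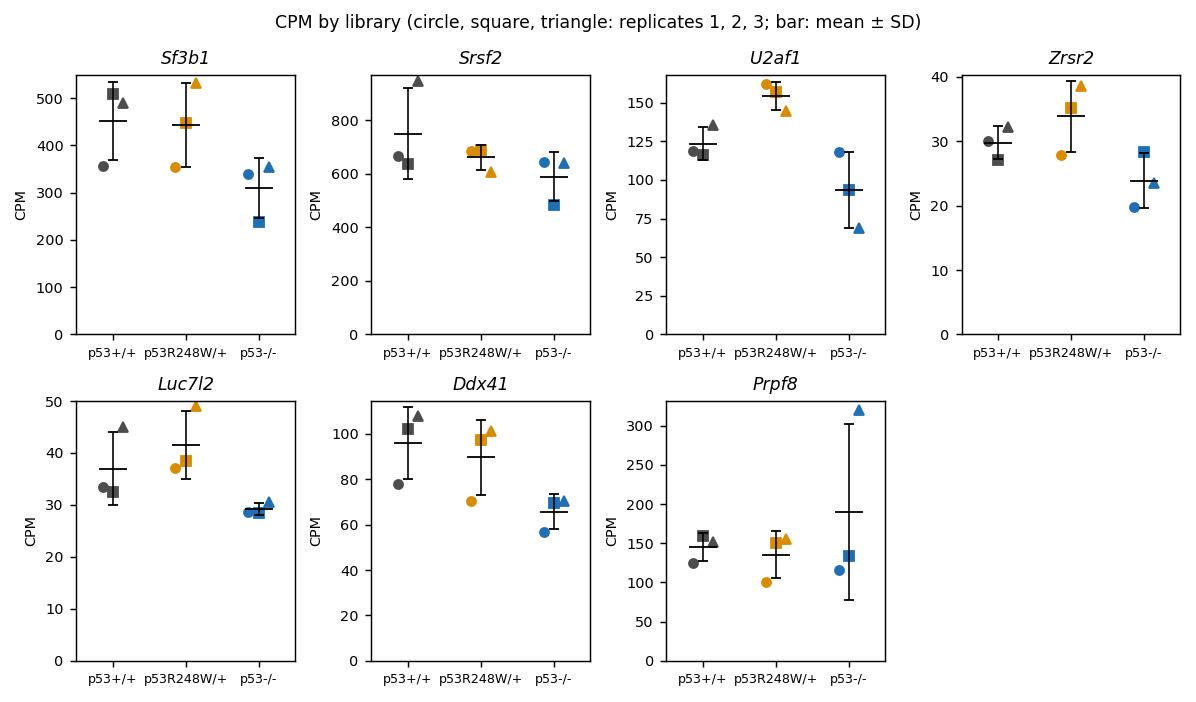
CPM by library (linear axis from 0) of the 7 members that are mutated or lost in myeloid neoplasms; symbols are replicates and bars the mean ± SD of 3 libraries. The p53-/- libraries lie below the p53+/+ libraries for Sf3b1, Luc7l2, and Ddx41, as they do in 16.0% of all genes tested. For Prpf8, 1 p53-/- library lies above all others.

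The R248W mutation was compared with its humanized control, and no member was called. In this comparison 1 gene of the 12625 tested, 0.00792%, was called. DESeq2 and limma-voom also called 0 members. At an unadjusted p below 0.05 there was 1 member, U2af2, against 0.958% of all genes, and in 2 members the groups did not overlap, U2af2 and U2af1, against 5.04% of all genes. Fold changes were below 0 in 35 of 69 members and their median was −0.00, against 0.01 over all genes.

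The subunits of U2AF, the heterodimer that reads the 3′ end of the intron, had fold changes of opposite sign, and neither was called. Groups that do not overlap were no more common among the members (1.45% in each direction) than over all genes (2.38% lower and 2.66% higher). U2af2, the large subunit that binds the polypyrimidine tract, read 92.8, 85.5, and 125 CPM in p53+/+, 60.6, 74.1, and 74.0 CPM in p53R248W/+, and 52.8, 96.2, and 85.4 CPM in p53-/- libraries, lower in each p53R248W/+ library than in each p53+/+ library (log2 fold change -0.54 ± 0.23 SE, unadjusted p = 0.038, adjusted p = 1, edgeR). The p53-/- values of U2af2 spanned both groups. U2af1, the small subunit, had a log2 fold change of 0.32 ± 0.19 SE (unadjusted p = 0.13, edgeR). The difference between the subunits was not tested.

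The other members farthest from 0 in p53R248W/+ against p53+/+ were Prpf40b (-0.53 ± 0.43 SE), Hnrnpdl (-0.38 ± 0.29), Prpf19 (0.38 ± 0.29), and Snrpg (0.28 ± 0.27). Their groups overlapped. Snrpg read 239, 139, and 147 CPM in p53R248W/+ libraries, and without replicate 1 its fold change was −0.03 on the log2 scale.

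Against p53-/- LSKs, p53R248W/+ LSKs had 4 called members, all higher, among them Prpf4b (log2 fold change 1.13 ± 0.23 SE, adjusted p = 0.025), Srsf5 (log2 fold change 1.19 ± 0.25 SE, adjusted p = 0.03), and Prpf31 (log2 fold change 0.70 ± 0.17 SE, adjusted p = 0.049). Of all genes tested, 2.34% were called higher and 1.10% lower. The 4 were also called in p53-/- against p53+/+, and the comparisons share the p53-/- libraries. At an unadjusted p below 0.05, 24 members were higher and 1, Srsf10, was lower, against 11.6% and 9.47% of all genes. The groups did not overlap in 18 members that were higher and 2 that were lower, against 12.1% and 12.0%. The median was 0.26, against 0.02 over all genes.

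By family, the medians of p53R248W/+ against p53-/- were 0.46 for the hnRNPs, 0.42 for Prpf, 0.28 for the Sm ring, 0.06 for SF3, and 0.05 for the SR proteins. Prpf19 had a log2 fold change of 0.94 ± 0.29 SE (adjusted p = 0.095, edgeR), U2af1 of 0.73 ± 0.20 (adjusted p = 0.062), and Hnrnpdl of 0.98 ± 0.29 (adjusted p = 0.086). No member was called without p53R248W/+ replicate 2, p53R248W/+ replicate 3, or p53-/- replicate 2, fits in which 77 to 100 of all genes were called. There was 1 (Prpf19) without p53-/- replicate 1 and 2 (Srsf5 and Hnrnpdl) without p53-/- replicate 3, where 164 and 102 of all genes were called, and 14 without p53R248W/+ replicate 1, where 1559 (12.3%) were, against 434 with all libraries. When the Y-linked level entered the fit 1 was called (Snrpe) among 195 genes (1.54%), and with only the 6 libraries below 1 CPM of Y-linked genes none was, among 46.

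Gene length moved with these values. The 23 shortest members, up to 2168 bases, had a median log2 fold change of −0.16 in p53-/- against p53+/+, and the 23 longest, from 3159 bases, −0.43. The 4212 shortest of all genes had a median of 0.07 and the 4212 longest −0.12. With the trend on length over all genes taken out, the median of the members was −0.18 in p53-/- against p53+/+ and 0.12 in p53R248W/+ against p53-/-. The part of length in the single calls was not tested.

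**Figure D5:**
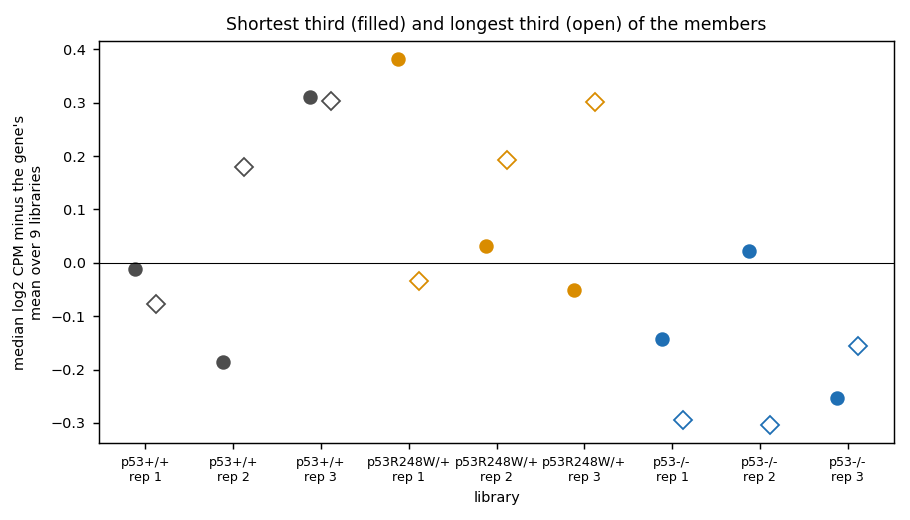
For each library, the median over the 23 shortest members (filled circles) and over the 23 longest members (open diamonds) of log2 CPM minus the gene's mean over the 9 libraries; colors are genotypes. The p53R248W/+ replicate 1 library has the short members at 0.38 and the long members at −0.03, and the p53-/- libraries have the long members at −0.29, −0.30, and −0.16.

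Other splicing genes, outside the member families, were read from 3 lists. Of 57 further core spliceosome genes tested, 2 were called lower and 0 higher in p53-/- against p53+/+, and 41 had fold changes below 0 (median −0.17). The share called lower was 3.51%, against 2.25% of all genes, and at an unadjusted p below 0.05 it was 12.3%, near the 12.5% of all genes. The called genes were U2surp, a U2-associated SR-like protein, which read 93.0, 131, and 154 CPM in p53+/+, 95.5, 158, and 140.3 CPM in p53R248W/+, and 44.3, 47.8, and 69.1 CPM in p53-/- libraries (log2 fold change -1.23 ± 0.25 SE, adjusted p = 0.029), and Cdc5l, of the Prpf19 complex (log2 fold change -0.71 ± 0.16 SE, adjusted p = 0.041). Of 40 splicing regulators, 5 (12.5%) were called lower and 0 higher (median −0.26). At an unadjusted p below 0.05 (edgeR), 35% were lower and 10% higher, against 12.5% and 10.9% of all genes. Among the 5 called were Ptbp2, a pyrimidine tract binder that represses exons (log2 fold change -1.53 ± 0.32 SE, adjusted p = 0.029, edgeR), and Rbm25 (log2 fold change -1.28 ± 0.29 SE, adjusted p = 0.037, edgeR). Ptbp2 read 15.8, 17.2, and 16.7 CPM in p53+/+, 7.58, 15.3, and 18.6 CPM in p53R248W/+, and 4.90, 5.74, and 6.58 CPM in p53-/- libraries.

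Of 17 genes for snRNP assembly, such as the SMN complex and Prmt5, none was called in p53-/- against p53+/+ and 11 had fold changes above 0 (median 0.18). At an unadjusted p below 0.05 (edgeR), 23.5% were higher and 5.88% lower, against 10.9% and 12.5% of all genes. In p53R248W/+ against p53+/+ none of the genes of these 3 lists was called. In p53R248W/+ against p53-/-, U2surp and Cdc5l were called higher among the core genes (3.51%, against 2.34% of all genes). At an unadjusted p below 0.05, 12.3% of the core genes were higher, near the 11.6% of all genes.

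Markers of division and of mature myeloid cells had fold changes below 0 in p53-/- against p53+/+ LSKs. In p53R248W/+ against p53+/+ none of them was called. Of 18 proliferation genes, 18 had fold changes below 0 in p53-/- against p53+/+ (median −0.51) and 2 (11.1%) were called lower, against 2.25% of all genes. Their summed level was 5330.0 to 6764 CPM in p53+/+, 5362 to 6089 CPM in p53R248W/+, and 3791 to 5463 CPM in p53-/- libraries. The p53-/- replicate 1 sum, 5463 CPM, lay within the p53+/+ range. Of 9 granulocyte and monocyte genes tested, 9 were below 0 (median −0.98) and none was called. Their sum was 2071 to 5974 CPM in p53+/+, 3563 to 7956 CPM in p53R248W/+, and 1443 to 1718 CPM in p53-/- libraries, and S100a8, a neutrophil gene, was at 799 CPM in p53+/+ replicate 2 and 548 CPM in p53R248W/+ replicate 2 and 4.62 to 44.3 CPM in the other 7. The myeloid progenitor enzyme Mpo was at 1712, 3087, and 2611 CPM in p53+/+ and 1456, 1169, and 1125 CPM in p53-/- libraries. Sums were 10.6 to 65.7 CPM for 4 erythroid genes, 72.0 to 124 CPM for 4 B cell genes, and 10.04 to 17.1 CPM for 5 T and NK cell genes over the 9 libraries. Of 10 LSK markers, 1 (10%) was called higher in p53-/- against p53+/+, against 1.25% of all genes, and 0 lower. In p53R248W/+ against p53-/-, 3 (30%) were called lower, against 1.10% of all genes, and 0 higher. The sum of the LSK markers was 3778 to 4782 CPM in p53+/+, 4153 to 4575 CPM in p53R248W/+, and 4663 to 5252 CPM in p53-/- libraries. The part of these in the members' values was not tested.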

How the data were processed

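RNA-seq of LSKs from 3 genotypes was used, with 3 libraries for each, grouped by the labels. For 12647 genes the authors deposited raw counts, a whole number of reads for each gene and library. The submitters' processing notes name STAR 2.5.2b, featureCounts, Subread 1.5.0, edgeR, and the build mm10, with no role given for each. The deposited gene lengths come from the authors' annotation, which is not given in the sources used here. The methods describe oligo(dT) selection with random priming and the labels name a SMART-Seq kit, which does not mark strand. The table's columns of the authors' own comparisons (fold changes, p-values, false discovery rates) were not used, and the ChIP-seq samples were not analysed here.

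The counts were fitted in edgeR 4.0.16 (R 4.3.3) after filterByExpr on the genotypes and with TMM factors, as 1 quasi-likelihood model over all 9 libraries, and p-values were adjusted by Benjamini-Hochberg over the 12625 genes tested, with a threshold of 0.05. CPM use TMM factors, and 0.5 CPM was added before log2 for values per library. Whether the 3 libraries of a genotype came from separate mice is not stated in the sources used here, so p-values measure the spread between libraries, and an SD holds counting error too. The replicate numbers of the titles were not taken to pair libraries. No 2 libraries of the same genotype agreed within sampling noise, and libraries of unlike genotypes were not compared in this way. The script was tested on simulated data.

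The members and gene lists were chosen with earlier results of these data known. Named were the members past the threshold, up to 10 per direction and comparison, 7 genes mutated or lost in myeloid neoplasms, the 3 largest and 3 smallest fold changes per comparison at a mean log2 CPM of at least 1, the 5 highest and 5 lowest levels per length, the smallest p per family, and up to 3 called genes per other list. Some genes that this rule takes are not reported here and are left out of the figures of single genes. Further members were named after their values were seen, to describe each family. Positions and promoters are from RefSeq. Overlapping genes and near-identical copies (BLAST+ 2.17.0, at least 95% identity over 50 bases, overlapping genes left out) were taken from GENCODE. Features of the proteins were not analysed here. Alternatives tried were limma-voom (limma 3.58.1), DESeq2 1.42.0, other size factors and filters, the replicate block, 6 libraries only, a Y-linked covariate, other thresholds, and each library left out. Figures were drawn with Python 3.11.15.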

Additional observations from a re-analysis of the deposited data

How the results depend on the processing

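For p53-/- against p53+/+, the members called numbered 13 with DESeq2, 10 with only the 6 libraries of the genotypes compared, 12 at an adjusted p below 0.1, and 0 at 0.01, where 12.2%, 7.13%, 10.4%, and 0.206% of all genes were called, against 3.501% as reported, and all called members were lower in each. Leaving out 1 library gave 0 to 14 called members and medians from −0.34 to −0.14, the latter without p53+/+ replicate 3. The median was −0.18 with the length trend removed, an alternative chosen after seeing the data. For p53R248W/+ against p53-/-, 12 were called with DESeq2, 2 with the 6 libraries, 1 with the Y-linked covariate, 0 with only the libraries under 1 CPM of Y-linked genes (chosen after seeing the data), 12 at 0.1, and 0 at 0.01, where 10.5%, 1.66%, 1.54%, 0.364%, 8.47%, and 0.483% of all genes were called, against 3.44% as reported; leaving out 1 library gave 0 to 14. The median there was 0.32 with the Y-linked covariate, 0.21 with only the libraries under 1 CPM of Y-linked genes, 0.12 with the length trend removed, and 0.16 to 0.34 with 1 library left out. For p53R248W/+ against p53+/+, 0 members were called under every alternative, and the median was −0.17 with only the libraries under 1 CPM of Y-linked genes. With the replicate block, 9 members (6.99% of all genes) were called in p53-/- against p53+/+, 6 (5.32%) in p53R248W/+ against p53-/- (median 0.22), and 0 in p53R248W/+ against p53+/+. Deviations of same-number libraries from their genotype means correlated at 0.44, 0.59, and 0.04 between p53+/+ and p53R248W/+, where unlike numbers gave −0.54 to 0.04, and at −0.14 to 0.19 with p53-/-. The titles carry matching library codes for replicates 1 and 2 of p53+/+ and p53R248W/+, unlike codes for replicate 3, and another form of code for p53-/-. Of the 9 libraries, 1 correlated best with its own number in both other genotypes. The sign turned for Prpf8, at −0.21 to 0.65 for p53-/- against p53+/+ and −0.76 to 0.11 for p53R248W/+ against p53-/- with 1 library left out, and for Snrpg, at −0.026 to 0.47 for p53R248W/+ against p53+/+. It turned without p53-/- replicate 3 for Prpf8 and without p53R248W/+ replicate 1 for Snrpg. It also turned for Srsf7: in p53R248W/+ against p53-/- the value was 0.041 with the Y-linked covariate and 0.090 with only the libraries under 1 CPM of Y-linked genes. The causes were not tested. limma-voom, DESeq2 size factors, upper-quartile factors, and the 2 other filters left every count within 1.5 times its value. With 3 libraries per genotype and a biological coefficient of variation of 0.28, small differences, such as most of those of the Sm and SF3 genes, may go uncalled. The smallest difference that could be called was not computed.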

Other observations

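Near-identical copies bear on further members whose values were given without that limit. Stretches with at least 95% identity to other annotated genes make up 66.6% of the transcript of Sf3b4, 64.8% of U2af2, and 62.6% of Snrpa. They make up 59.5% of the transcript of Hnrnpf, 49.5% of Srsf3, 47.5% of Snrpc, and 46.4% of Hnrnpk. The differences given for U2af2 between genotypes carry this limit. Genes on the opposite strand share 85.4% of the exon bases of Snrpf, 26.5% of Hnrnpf, 25.3% of Srsf2, and 18.9% of Luc7l2, and reads of the genes on the strands cannot be told apart in an unstranded library. No copy or overlap of this size was found for Prpf4b or Hnrnpdl.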
